A study of Mus musculus with 6 samples.

Results

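The Cyp2b and Cyp3a cytochrome P450 genes were examined in livers of mice that had received esculetin or its vehicle. The 10 members were taken by name from the 55357 genes of the count table, 3 of the Cyp2b family (Cyp2b9, Cyp2b10 and Cyp2b13) and 7 of the Cyp3a family (Cyp3a11, Cyp3a13, Cyp3a16, Cyp3a25, Cyp3a41a, Cyp3a44 and Cyp3a59). Liver RNA came from wild-type male C57BL6/J mice of 8 to 9 weeks. All received a daily gavage for 7 days, of which the first 4 were on a diet with 10% of its energy as fat and the last 3 on a high-fat diet (HFD) with 60%. The vehicle group received 2.5% Tween-80 and the esculetin group received esculetin, a coumarin. The annotations of the esculetin libraries name 180 mg/kg/d in the titles and 90 mg/kg/d in the treatment field, so no dose is attached to the group here. Each group held 3 libraries, and a library pooled the livers of 2 mice, so p-values measure the spread between such pools.

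Cyp2b and Cyp3a enzymes sit in the endoplasmic reticulum of hepatocytes and oxidise drugs, steroids and bile acids. Their genes are the textbook targets of the nuclear receptors CAR (Nr1i3) and PXR (Nr1i2), which sense foreign compounds and bind DNA together with the retinoid X receptor RXR. Cyp2b10 is the classical readout of CAR and Cyp3a11 that of PXR in mouse liver. Several of the paralogs, among them Cyp2b9, Cyp2b13, Cyp3a16, Cyp3a41a and Cyp3a44, are known as transcripts of female or young liver that adult males make little of.

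With esculetin, Cyp2b10 and Cyp2b9 moved from the edge of detection to a low level, while none of the abundant Cyp3a genes was called. Cyp2b10 was 6.46-fold and Cyp2b9 13.7-fold higher, and these were the 2 members that met both criteria for a call, more than 1.5-fold and an unadjusted p under 0.05 by the quasi-likelihood test in edgeR. Among all 14433 genes tested, 1.37% passed in that direction. Both genes entered the test only through the esculetin libraries, which fixed their direction, so nothing is read from their count beside that share. No member passed as lower, against 1.76% of all genes. Cyp3a13, Cyp3a25 and Cyp3a59 lay 1.30-fold to 1.43-fold higher with an unadjusted p-value under 0.05. In all, 5 of the 6 members tested were under 0.05 at any fold, 5 of them higher and 0 lower. Of all genes, 11.9% were, 6.53% higher and 5.32% lower. The 5 include Cyp2b10 and Cyp2b9, whose direction was fixed, so nothing is read from this count beside those shares. Cyp3a11, which had the highest mean level per length of the set in the vehicle group, did not pass. After Benjamini-Hochberg adjustment over all genes in edgeR, 0 members were under 0.05, and 0.0416% of all genes were, each of them higher with esculetin. The adjusted p-value was under 0.05 for 1 member (Cyp2b9) with DESeq2 and for 5 of the 9 members then tested when genes with low counts were kept in the fit. The share of all genes under 0.05 in these fits is not given here, so nothing is read from these counts. Keeping genes with low counts also raised the calls over all genes from 452 to 776. The SE of Cyp3a11 was 0.13 in that fit, against 0.31 in the main fit.

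The total counts lay between 27957713 and 34920922 per library, with all 3 esculetin libraries deeper than any vehicle library. Values are CPM, counts relative to the library size after scaling by the trimmed mean of M values (TMM), and 3 counts, the floor for detection, equal 0.0865 to 0.109 CPM. Intervals and floors from counts cover counting error only. Of the 10 members, 6 passed the filter on low counts. The 6 hepatocyte markers summed to between 76180 and 86330 CPM, with 0 of them past the thresholds. Cyp2b and Cyp3a transcripts are found mainly around the central vein. The 8 pericentral markers summed to between 9239 and 10250 CPM with vehicle and between 9986 and 11550 with esculetin, and 1 of them, the Wnt feedback gene Axin2, passed as lower. The 7 periportal markers summed to between 5222 and 5584 CPM in vehicle livers and, without overlap, to between 5624 and 5811 in esculetin livers, with 0 past the thresholds in edgeR and 1 with an unadjusted p under 0.05. Their part in the results below was not tested. The summed markers of Kupffer, sinusoidal endothelial, stellate, bile duct, gut epithelial, pancreatic and fat cells overlapped between the groups, with 0 of those tested past the thresholds. The gut enzymes Lct and Sis, the pancreatic genes Prss2, Cpa1 and Pnlip and the fat hormone Lep were at 0 counts in every library. In whole tissue, fewer cells of a type cannot be told apart from less RNA per cell.

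**Figure D1:**
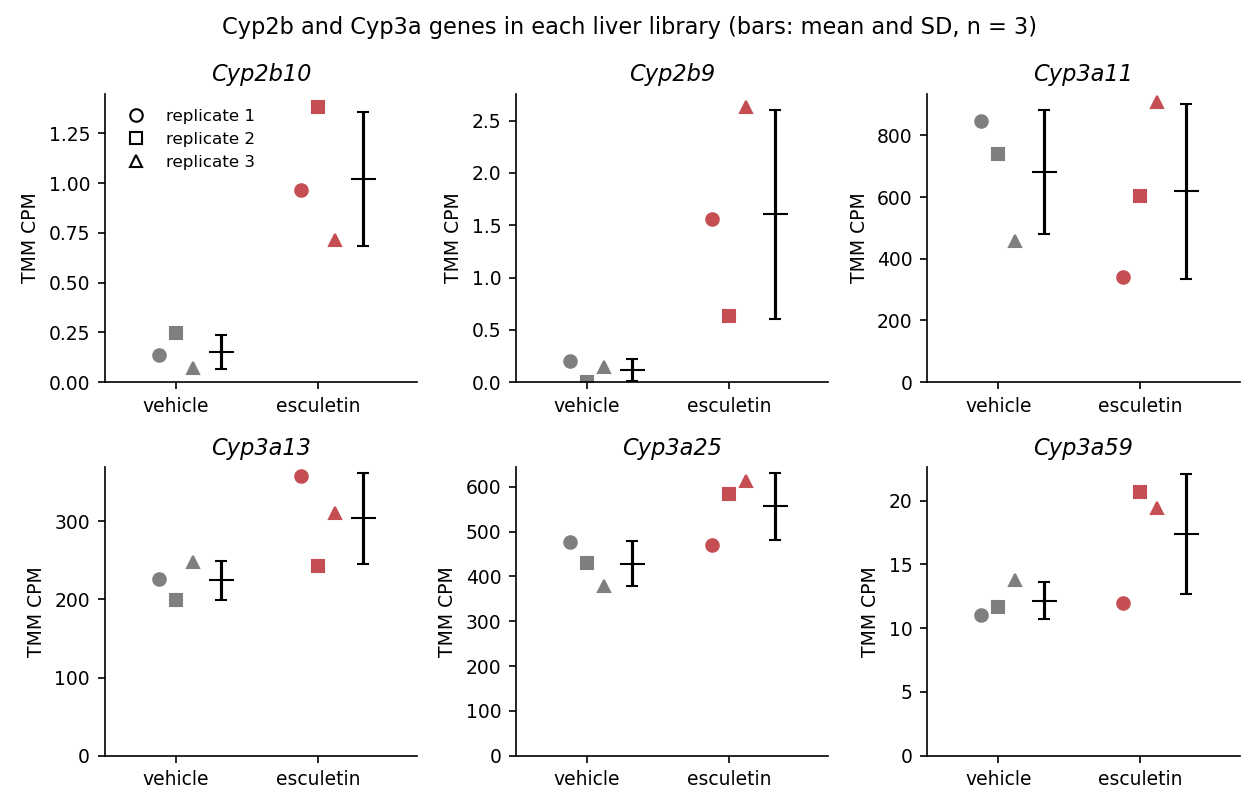
Normalised level (TMM CPM, linear axes from 0) of the 6 members that passed the filter on low counts, in the 3 vehicle libraries (grey) and the 3 esculetin libraries (red). Marker shapes give the replicate number and bars the mean and SD (n = 3). The groups are apart in Cyp2b10 and Cyp2b9 and overlap in the other 4 genes.

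Cyp2b10 (chromosome 7, 25597045 to 25626049, build GRCm39) encodes the phenobarbital-inducible P450 of mouse liver. Its counts were 4, 8 and 2 in the vehicle libraries and 31, 48 and 24 in the esculetin libraries. In CPM these were 0.136, 0.246 and 0.0729 with vehicle against 0.964, 1.38 and 0.717 with esculetin. The groups did not overlap, and the lowest esculetin value was 0.717 CPM beside a highest vehicle value of 0.246. The log2 fold change was 2.69 (SE 0.51, 95% CI 1.54 to 3.84), with an adjusted p = 0.132 in edgeR (unadjusted p = 0.000415). Over the alternatives on all 6 libraries the adjusted p-value lay between 0.000511, without the filter on low counts, and 0.149, and DESeq2 gave none. From the summed counts alone, 14 against 103, the ratio at equal depth was 6.55 with an exact 95% interval of 3.73 to 12.4. Because no vehicle library reached 10 counts, the gene passed the filter only through the esculetin libraries, and it had to be higher there to be tested. The separation of the groups was thereby fixed as well, and nothing is read from it.

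Cyp2b10 is known for an enhancer upstream of its start that responds to phenobarbital. CAR and PXR bind pairs of a 6-base unit, and the 3000 bases upstream of the canonical start of each protein-coding Cyp2b and Cyp3a gene were searched on both strands for a pair of units, each of them AGGTCA or the variant AGTTCA or else the variant AGTACA, as a direct repeat with NNN or NNNN between them or as an everted repeat with NNNNNN between them. Of 14 genes searched, 1 held a match, Cyp2b10, where a direct repeat with a spacer of 4 bases lies 2298 to 2283 bases upstream of the start and overlaps no other match. Over all 21603 protein-coding genes, 0.606% held a direct repeat with this spacer in a window of that length and 1.39% held any of the searched pairs. The units of the match are AGGTCA and the variant AGTACA, so it was found only because that variant was searched for. Nothing is therefore read from the count of 1 beside these shares. The 66 bases around the match are shown because Cyp2b10 and Cyp2b9 were the members past the thresholds, beside the ungapped stretch upstream of Cyp2b9 and Cyp2b13 with the most bases in common. The capitals mark the 16 positions of the repeat, on the strand of the gene, where the match reads as the reverse complement.
Cyp2b10, chr7:25594737-25594802, plus strand: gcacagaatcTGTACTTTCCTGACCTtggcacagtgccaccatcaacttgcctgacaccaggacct
Cyp2b9, chr7:25871986-25872051, plus strand: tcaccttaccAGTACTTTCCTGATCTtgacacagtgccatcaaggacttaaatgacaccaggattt
Cyp2b13, chr7:25760084-25760149, plus strand: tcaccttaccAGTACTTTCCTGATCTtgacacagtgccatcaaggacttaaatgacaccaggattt
The stretches of Cyp2b9 and Cyp2b13 were equal to each other at 66 of 66 bases and to that of Cyp2b10 at 49. Counted from 1 at the 5′ end of the Cyp2b10 stretch, the repeat differed from Cyp2b10 by T11A and C24T in both. These stretches begin 849 and 838 bases upstream of the starts of Cyp2b9 and Cyp2b13, nearer than in Cyp2b10. The other 11 genes had at most 32 bases in common with it. A match is a description of the letters, and its absence in this window says nothing about binding elsewhere.

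Cyp2b9 lies in the same cluster, on chromosome 7 from 25872835 to 25910086, and encodes a P450 that hydroxylates steroids in female liver. It had 6, 0 and 4 counts with vehicle and 50, 22 and 88 with esculetin. The CPM values were 0.204, 0 and 0.146 against 1.55, 0.634 and 2.63. The groups did not overlap. Within the esculetin group, replicate 2 was the lowest for Cyp2b9 and the highest for Cyp2b10, so the order of the libraries was not shared. The log2 fold change of Cyp2b9 was 3.78 (SE 0.78, 95% CI 2.05 to 5.51), with an adjusted p = 0.136 in edgeR (unadjusted p = 0.000701), and the adjusted p-value lay between 8.87e-08, without the filter, and 0.209, with limma-voom, over the alternatives on all 6 libraries. The summed counts, 10 against 160, gave a ratio of 14.2 with an exact 95% interval of 7.55 to 30.3. Single libraries moved the log2 fold change of Cyp2b9 to 4.49 without vehicle replicate 1 and to 3.16 without vehicle replicate 2. This gene, too, passed the filter only through the esculetin libraries, which fixed its direction and the separation of the groups.

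Cyp2b13 shares its upstream stretch with Cyp2b9 but stayed near the detection floor. It had 0, 0 and 2 counts with vehicle and 4, 0 and 0 with esculetin, so a single library of the 6 was above 3 counts. The coding sequence of Cyp2b13 was 92.7% identical to that of Cyp2b9, and those of Cyp2b9 and Cyp2b13 were 87.7% and 88.7% identical to that of Cyp2b10. Only 1.18% of the 100-base windows of the Cyp2b9 transcript also occurred in another gene of the family, and 0% of those of Cyp2b10 did. Summed over the Cyp2b family, the level was 0.340, 0.246 and 0.292 CPM with vehicle and 2.64, 2.02 and 3.35 CPM with esculetin. Per length, the summed level was 0.154 ± 0.0259 RPKM in vehicle livers beside 1.41 ± 0.357 in esculetin livers (reads per kilobase of transcript on the CPM scale, mean ± SD, n = 3).

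Cyp3a11 encodes the principal drug-oxidising P450 of mouse liver and lies on chromosome 5 from 145791236 to 145816867. Its CPM was 846, 740 and 459 with vehicle and 342, 605 and 907 with esculetin. Both the lowest and the highest of the 6 values came from esculetin libraries, 2.65-fold apart, and the groups overlapped fully. The log2 fold change was -0.14 (SE 0.31) with a 95% CI of -0.84 to 0.56, that is 0.558-fold to 1.47-fold. The adjusted p = 0.903 in edgeR was far from the threshold. Its direction rested on single libraries: the log2 fold change was 0.045 without vehicle replicate 1 and 0.15 without esculetin replicate 1. The spread within groups was wide for so abundant a gene. The SD within groups was 0.60 on the log2 scale, larger than in 98.7% of the 1347 genes with a mean of at least 100 CPM, whose median was 0.098.

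Cyp3a25 and Cyp3a13 encode further Cyp3a enzymes of adult liver, and Cyp3a13 is also made in the gut. Cyp3a25, on chromosome 5 from 145913516 to 145946432, had 477, 430 and 378 CPM with vehicle and 471, 585 and 613 CPM with esculetin. One esculetin library lay just under the highest vehicle library, and the other two lay above all of them. Its log2 fold change was 0.38 (SE 0.12), with an adjusted p = 0.265 in edgeR (unadjusted p = 0.0104). Cyp3a13 lies 7.36 Mb from the rest of the Cyp3a cluster, on chromosome 5 from 137891193 to 137919882. It had 226, 199 and 248 CPM with vehicle and 357, 243 and 311 CPM with esculetin, with an overlap again by 1 esculetin library. The log2 fold change was 0.44 (SE 0.14), with an adjusted p = 0.265 in edgeR (unadjusted p = 0.0102).

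Cyp3a59, a close relative of Cyp3a25, is a less abundant gene at the end of the cluster, on chromosome 5 from 146016067 to 146050097. It had 11.1, 11.6 and 13.8 CPM with vehicle and 12.0, 20.7 and 19.4 CPM with esculetin. Esculetin replicate 1 lay among the vehicle libraries, and the others were apart from them. The log2 fold change was 0.52 (SE 0.19), with an adjusted p = 0.340 in edgeR (unadjusted p = 0.0231). It crossed the 1.5-fold threshold without esculetin replicate 1 (log2 fold change 0.72) and without vehicle replicate 3 (0.62). Its unadjusted p in edgeR was over 0.05 in 4 of the 6 fits without 1 library, at 0.0693 without vehicle replicate 1, 0.0672 without vehicle replicate 2, 0.102 without esculetin replicate 2 and 0.0754 without esculetin replicate 3. The coding sequence of Cyp3a59 was 97.5% identical to that of Cyp3a25, and 6.10% of the 100-base windows of its transcript occurred in another gene of the family. How the authors treated reads that map to more than 1 gene is not given in the sources used here, so a small share of Cyp3a25 reads in the value of Cyp3a59 cannot be told apart.

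**Figure D2:**
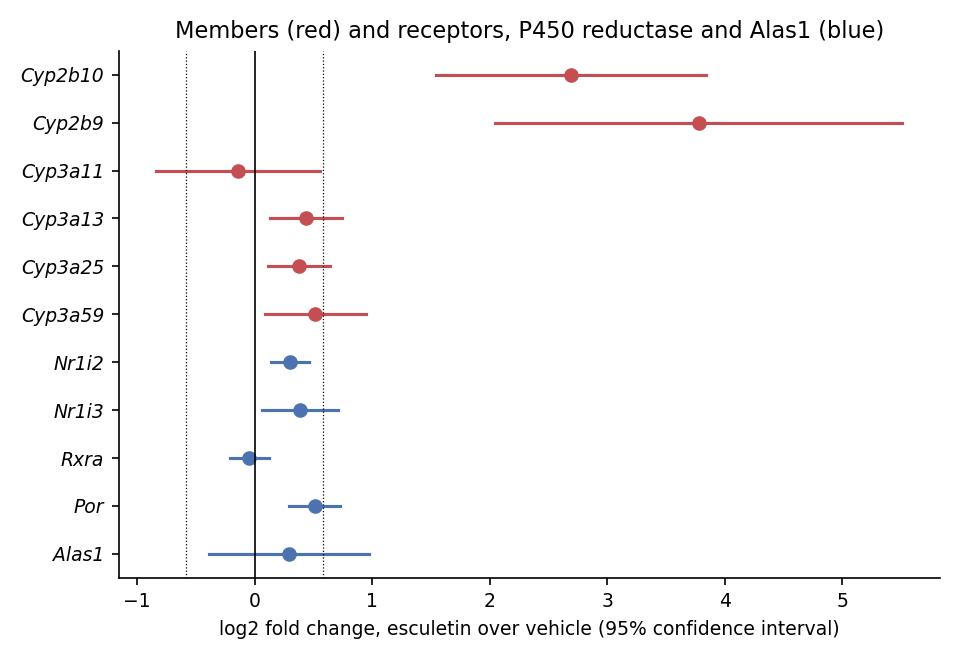
Log2 fold change of esculetin over vehicle with its 95% CI, from the fit across all genes, for the 6 members tested (red) and for Nr1i2, Nr1i3, Rxra, Por and Alas1 (blue). Dotted lines mark a 1.5-fold change in either direction. The intervals of Cyp2b10 (1.54 to 3.84) and Cyp2b9 (2.05 to 5.51) lie beyond them, and that of Cyp3a11 spans 0.

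The remaining Cyp3a members were at or under the detection floor in nearly every library. Cyp3a16, known from fetal and female liver, had 4, 1 and 0 counts with vehicle and 0, 0 and 1 with esculetin. Cyp3a44 had 2, 1 and 2 counts with vehicle and 0, 2 and 0 with esculetin. Cyp3a41a had 0 counts in all 6 libraries, which allows up to 0.0865 to 0.109 CPM. From the summed counts, 5 against 1, the ratio at equal depth was 0.178 for Cyp3a16 (exact 95% interval 0.00377 to 1.59), and from 5 against 2 it was 0.356 for Cyp3a44 (0.0339 to 2.18). These intervals leave out the spread between libraries. For Cyp3a41a the zero has to be read beside its copy Cyp3a41b, whose coding sequence was 99.9% identical. Of the 100-base windows of the Cyp3a41a transcript, 90.8% also occurred in another gene of the family. Cyp3a41b itself had 5 counts over all libraries and Cyp3a57, the other protein-coding gene of the cluster outside the list, had 4. Of the 8 Cyp2b and Cyp3a genes and pseudogenes that are not members, the other 6 (Cyp2b19, Cyp2b23, Cyp2b26-ps, Cyp2b27-ps, Cyp3a61-ps1 and Cyp3a63-ps) had 0 counts in every library.

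Levels were compared between genes only per length, as RPKM (CPM per kilobase of the canonical transcript). In the vehicle group Cyp3a11 had 280 ± 82.0 RPKM, Cyp3a25 213 ± 24.7, Cyp3a13 75.8 ± 8.37 and Cyp3a59 6.09 ± 0.728 (mean ± SD, n = 3). Cyp2b10 followed at 0.0791 ± 0.0456 RPKM and Cyp2b9 at 0.0622 ± 0.0560 (n = 3). In this order the libraries of Cyp3a11 and Cyp3a25 overlapped, as did those of Cyp2b10 and Cyp2b9. Per kilobase of all annotated exons, which are longer for Cyp3a25, its vehicle mean was 52.5 RPKM and that of Cyp3a13 68.6, so the order of these genes depends on the length used. With esculetin the means were 254 ± 116 RPKM for Cyp3a11, 277 ± 37.5 for Cyp3a25 and 103 ± 19.5 for Cyp3a13, against 0.533 ± 0.176 for Cyp2b10 and 0.855 ± 0.532 for Cyp2b9 (mean ± SD, n = 3).

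Cyp3a11 made up 52.1%, 51.4% and 40.3% of the summed Cyp3a RPKM in the vehicle libraries and 28%, 39.3% and 47.0% in the esculetin libraries. The summed level was 575 ± 101 RPKM in vehicle livers beside 642 ± 146 in esculetin livers (mean ± SD, n = 3), with p = 0.6 in a two-sided exact permutation test, where 3 against 3 libraries cannot give less than 0.1. The ratio of Cyp3a11 to Cyp3a25, which does not depend on library scaling, was 1.46, 1.42 and 1.001 with vehicle and 0.600, 0.853 and 1.22 with esculetin. The groups overlapped in this ratio, by esculetin replicate 3 (exact permutation p = 0.2, two-sided). Both quantities were chosen after the values were seen.

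**Figure D3:**
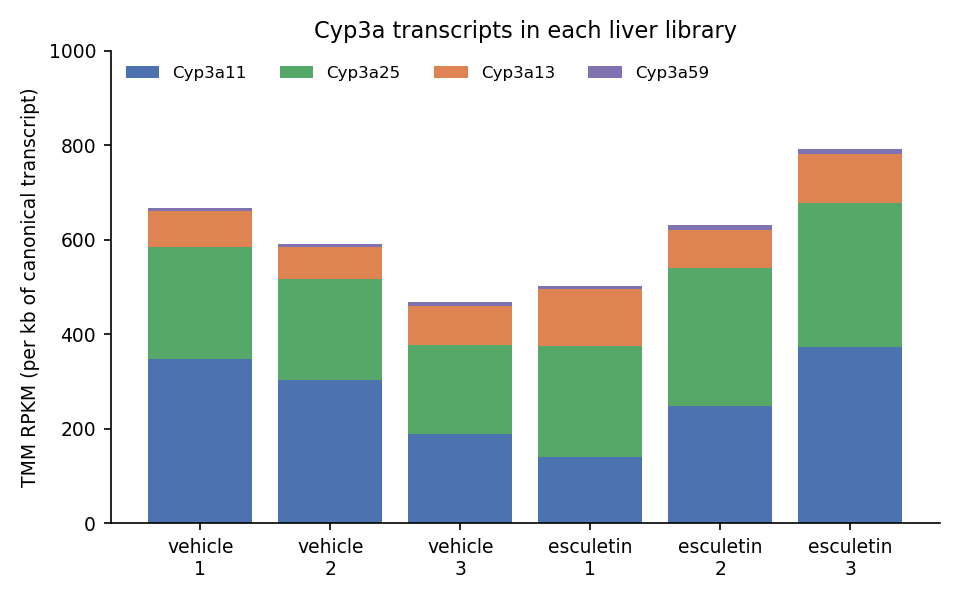
Level of the 4 abundant Cyp3a transcripts (TMM RPKM per kilobase of canonical transcript, stacked, axis from 0) in each of the 6 liver libraries. The summed height runs from 467 in vehicle replicate 3 to 792 in esculetin replicate 3, and the Cyp3a11 part is smallest in esculetin replicate 1.

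The receptors that control these genes were present in every library. Nr1i2, which encodes PXR, had 76.4, 78.7 and 73.7 CPM with vehicle and 93.9, 90.3 and 97.8 CPM with esculetin, with no overlap. Its log2 fold change was 0.30 (SE 0.072), with an adjusted p = 0.172 in edgeR (unadjusted p = 0.00196), a difference under the 1.5-fold threshold. Nr1i3, which encodes CAR, had 26.9, 23.8 and 17.4 CPM with vehicle and 27.6, 29.6 and 31.7 CPM with esculetin, also with no overlap. Such a separation in this direction was seen in 9.2% of all genes tested. The log2 fold change of Nr1i3 was 0.39 (SE 0.14), with an adjusted p = 0.345 in edgeR (unadjusted p = 0.0244). Rxra, the shared partner, had 390 ± 9.04 CPM in vehicle livers beside 378 ± 15.9 in esculetin livers (mean ± SD, n = 3), and its log2 fold change was -0.045. Of 10 receptors and co-regulators, 1 passed the thresholds, as higher, beside 1.37% of all genes tested. In all, 4 of the 10 had an unadjusted p-value under 0.05 in edgeR, beside 11.9% of all genes, and 1 of these was lower, the coactivator gene Ncoa1, with a log2 fold change of -0.37, named after its value was seen. The called gene was Nr0b2, the repressor SHP of bile acid signalling, at 16.1 ± 4.75 CPM in vehicle livers beside 31.2 ± 2.49 in esculetin livers (mean ± SD, n = 3). The median log2 fold change of the list was 0.055, beside -0.008 for all genes tested.

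P450 enzymes depend on electrons from the reductase Por and on heme, whose synthesis Alas1 limits. Por had 231, 184 and 195 CPM with vehicle and 292, 273 and 304 CPM with esculetin. The groups were apart, as in 9.2% of all genes tested in this direction, with an adjusted p = 0.132 in edgeR (unadjusted p = 0.000438). The log2 fold change of 0.51 (SE 0.098) was under the fold threshold. Alas1 was scattered in both groups, at 318, 354 and 747 CPM with vehicle and 690, 405 and 639 CPM with esculetin, and its log2 fold change was 0.29 (SE 0.31). Of the 8 genes for electron donors and heme supply, 0 passed the thresholds in edgeR, DESeq2 or limma-voom, while 3 had an unadjusted p-value under 0.05 in edgeR. Of all genes tested, 3.13% passed the thresholds and 11.9% had an unadjusted p-value under 0.05. An adjusted p under 0.05, at any fold, was reached by 0 of the 8 genes in edgeR, by 3 with DESeq2 and by 3 without the filter on low counts. Without vehicle replicate 1 or without vehicle replicate 3, 1 of the 8 passed the thresholds.

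Other targets of CAR and PXR were counted in a list of 27 genes, of which 24 were tested. The list was chosen with earlier results of these data known, so its shares are no independent test. In it 7 genes (29.2%) passed the thresholds, against 3.13% of all genes tested. As higher 6 passed and as lower 1, against 1.37% and 1.76% of all genes. An unadjusted p-value under 0.05 was seen in 16 of the listed genes, beside 11.9% of all genes. Several of these genes are also targets of the xenobiotic sensors AhR and NRF2. The median log2 fold change was 0.41. Of the genes called as higher, the smallest p-values belonged to Cyp2a5, the coumarin hydroxylase, at 379 ± 40.5 CPM in vehicle livers beside 1270 ± 114 in esculetin livers (n = 3), and to the glutathione transferase Gstm1, with a log2 fold change of 1.45. They were followed by the efflux pump Abcc3 (1.17), the transferases Gstm3 (0.99) and Gsta2 (1.501), and Tsku (0.63), a secreted proteoglycan. The lower gene was Cyp2c55, a P450 with a log2 fold change of -0.94 at 1.54 CPM with vehicle, named after its value was seen. Transferases and P450s of these families have near-identical relatives, so their values are uncertain where reads could be split. Without vehicle replicate 1, 11 genes of the list passed.

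**Figure D4:**
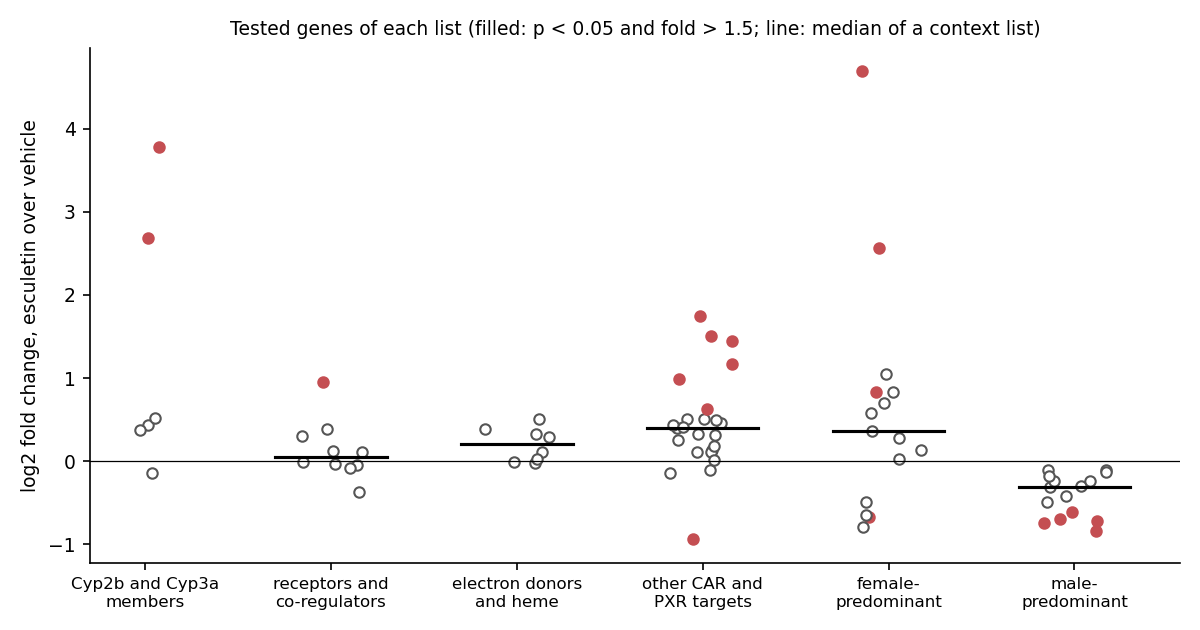
Log2 fold change of esculetin over vehicle (each point a tested gene, spread sideways for legibility) for the 6 members tested and the 5 context lists. Filled points passed both thresholds, and lines are list medians, 0.41 for other CAR and PXR targets, 0.36 for female-predominant genes and -0.32 for male-predominant genes.

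Since Cyp2b9 and other members are sex-biased in mouse liver, other sex-biased liver genes were counted as well. These lists, too, were chosen with earlier results of these data known. Of 20 female-predominant genes outside the families, 15 were tested and 4 passed, 3 as higher, among them Cyp2a4 and Fmo2, and 1 as lower (Rtn4rl1), that is 26.7% of those tested, beside 3.13% of all genes. Cyp2a4, a steroid-hydroxylating P450, was at 0.217 ± 0.176 CPM in vehicle livers beside 5.62 ± 3.07 in esculetin livers (mean ± SD, n = 3). Genes at so low a vehicle level enter the test only through the group in which they are high. How far the reads of Cyp2a4 are shared with Cyp2a5, at 379 CPM in vehicle livers beside 1270 in esculetin livers, was not tested. The count of female-predominant genes called was 9 without vehicle replicate 1. Of 15 male-predominant genes, all tested, 5 passed, 0 as higher and 5 as lower, that is 33.3% beside the 1.76% of all genes that passed as lower: Cyp7b1, C6, Elovl3, Ugt2b38 and Cyp4a12a. Their log2 fold changes ran from -0.84 for Cyp7b1 to -0.61 for Ugt2b38. In Cyp7b1, Cyp4a12a and Ugt2b38 the groups overlapped by vehicle replicate 1, which had 270, 108 and 47.5 CPM of them, and 5 of the list passed without that library. The count was 3 without vehicle replicate 2 and 3 without vehicle replicate 3.

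The genes whose course over the 6 libraries was most like that of a member were ranked by the root-mean-square difference of log2 CPM, each gene centred on its own mean, among 12174 genes with a mean of at least 1 CPM. For Cyp2b10 these were Gdf15, a stress-induced hormone, with a difference of 0.41 on the log2 scale, Cyp2a5 (0.54) and Gstm1 (0.58). Gdf15 had 0.477, 0.430 and 0.474 CPM with vehicle and 2.18, 2.71 and 1.73 CPM with esculetin, so the order of the esculetin libraries was that of Cyp2b10. For Cyp2b9 the nearest were Cyp2a4 (0.98), Rgs16 (1.09), a regulator of G protein signalling, and Gdf15 (1.12). For Cyp3a11 they were Dennd2b (0.11), the kinase gene Sgk2 (0.15) and Rcan3 (0.17), none of which passed the thresholds. Sgk2 had 50.7, 44.9 and 31.0 CPM with vehicle and 24.8, 37.7 and 47.2 CPM with esculetin. The likeness to Cyp3a11 therefore lay in the order of libraries within each group, with the lowest value in esculetin replicate 1.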

How the data were processed

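Paired-end reads had been mapped to GRCm39 with HISAT2 2.2.1, and the authors deposited the raw counts per gene that featureCounts gave, without normalization. The annotation release, strandedness and handling of reads that fit several genes are not given in the sources used here. Libraries were assigned by the treatment field, and columns by group name and number. Gene names, positions, transcripts and sequences came from GENCODE vM39 on GRCm39, which named 54749 of 55357 genes. Counts were filtered with filterByExpr, scaled with TMM and fitted in edgeR 4.0.16 (quasi-likelihood test, R 4.3.3). A gene was called at an unadjusted p under 0.05 and a fold change over 1.5, the thresholds of the paper, with the Benjamini-Hochberg adjusted p beside it. Ratios of summed counts have exact conditional binomial intervals, RPKM is TMM-scaled CPM per kilobase of canonical transcript, and coding identity was computed from the longest reading frame of that transcript. The biological coefficient of variation was 14.6%. The test was checked on simulated counts. Chi-square per gene was at least 26.5 for each pair of libraries in a group, so none was a copy. Fits were repeated with DESeq2 1.42.0, with limma-voom (limma 3.58.1), with other scalings and filters, each library left out and the replicate number as a block. Genes named outside the members were the Cyp2b and Cyp3a relatives, Nr1i2, Nr1i3, Rxra, Por, Alas1, called genes of the lists (at most 6 a list, by p) and the 3 genes most like Cyp2b10, Cyp2b9 and Cyp3a11. Members and lists were chosen with earlier results of these data known. Cyp2c55, Ncoa1, the marker genes and the neighbours of the gene clusters fall outside the rule for named genes and were named after their values were seen. One gene of the lists is not reported here.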

Additional observations from a re-analysis of the deposited data

How the results depend on the processing

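With 2 members called higher and 0 lower, both counts were the same with DESeq2, limma-voom, both other scalings and without the filter. With at least 10 counts in every library Cyp2b10 and Cyp2b9 were not tested, and the count was 0. It was also 0 with an adjusted p under 0.05 as threshold, under which 6 of all genes were called, 6 of them higher. Without 1 library each, 2 to 3 members were called. Of all genes, 452 were called (198 higher), 776 without the filter (361 higher) and 411 to 588 without 1 library (191 to 272 higher). The log2 fold changes of the members kept their sign under the alternatives on all 6 libraries. When 1 library was left out they lay between 3.16 and 4.49 for Cyp2b9, 2.39 and 3.23 for Cyp2b10, -0.52 and 0.15 for Cyp3a11 and 0.37 and 0.72 for Cyp3a59. Cyp3a11 changed sign without vehicle replicate 1 (0.045) and without esculetin replicate 1 (0.15). Female-predominant genes called were 4, 8 without the filter, 2 with at least 10 counts in every library and 3 to 9 without 1 library. Male-predominant genes called were 5, 3 with limma-voom and 3 to 5 without 1 library. Other CAR and PXR targets called were 7, and 6 to 11 without 1 library. Electron donor and heme genes called were 0, and 0 to 1 without 1 library. The cause of these changes was not tested. The replicate numbers do not pair the libraries, since the deviations of same-numbered libraries correlated at -0.069, -0.011 and 0.0027. With the replicate block 399 genes and the same 2 members were called, with log2 fold changes of 2.75 for Cyp2b10 and 3.80 for Cyp2b9. Depth limits Cyp2b13, Cyp3a16, Cyp3a41a and Cyp3a44, whose counts were too low to test.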

Other observations

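The genomic surroundings of the gene clusters were described as well, a choice made after the values were seen. The Cyp2b cluster spans 875 kb of chromosome 7, from 25597045 to 26472055 of GRCm39, and is interleaved with genes of the Cyp2a and Cyp2g families. Within it and 500 kb to either side, 30 other genes were tested and 6 passed the thresholds, against 3.13% of all genes. The higher ones were Cyp2a4, Cyp2a5, Cyp2a22, Cyp2g1 and the pseudogene Cyp2a21-ps, and the lower one was Gm15883. With at least 10 counts in every library 4 of 25 passed, and without vehicle replicate 2 the count was 5. Cyp2g1, known as an olfactory P450, had 1.20 ± 0.473 CPM in vehicle livers beside 2.50 ± 0.0886 in esculetin livers (mean ± SD, n = 3). Cyp2a21-ps had 0.327 ± 0.0457 CPM in vehicle livers beside 1.14 ± 0.0649 in esculetin livers (n = 3). How far its reads are shared with Cyp2a genes was not tested. The median log2 fold change of the 30 genes was 0.00081, beside -0.008 for all genes.

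The Cyp3a cluster spans 768 kb of chromosome 5, from 145282089 to 146050097. Of the 18 other genes tested within it and 500 kb to either side, 0 passed the thresholds in edgeR, DESeq2 or limma-voom, while 3 had an unadjusted p-value under 0.05 in edgeR, beside 3.13% and 11.9% of all genes. The count was 1 without the filter on low counts, and 1 without vehicle replicate 3, without esculetin replicate 2 or without esculetin replicate 3. Their median log2 fold change was -0.052.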
